A study of Caenorhabditis elegans with 16 samples.

Results

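The age difference of the fasting response was measured as the change of each gene's level with a fast in young adult nematodes minus the same change at day 8 of adulthood. It rests on all 16 of 16 libraries of polyA RNA from whole Caenorhabditis elegans of the wild-type N2 Bristol strain. The 4 groups hold 4 libraries each. At both ages, young adulthood and day 8, 1 group had food at will and the other went without food for 6 h. All animals were grown on NGM plates at 20 °C, and none carried a mutation or a transgene according to the labels. The series was set up to find genes that answer a fast when the animals are young and no longer do so with age. The labels do not say whether the numbered libraries came from separate cultures, so p-values here measure only the spread between these libraries.

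A worm that runs out of food stops importing dietary lipid and sugar and turns to its own stores. Lysosomal lipases release fatty acids from fat droplets, mitochondria and peroxisomes shorten them by beta-oxidation, and the glyoxylate cycle routes the acetyl groups toward sugar. Desaturases and elongases, which build and modify fatty acids, are turned down, while autophagy recycles cell components. Transcription factors such as NHR-49, a nuclear hormone receptor, and HLH-30, the worm counterpart of TFEB, are known to direct much of this switch in young adults.

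Libraries held 58382419 to 117658540 counts each. In a principal component analysis the component carrying 77.7% of the variance separated the ages, and all 4 day 8 libraries numbered 1 and 2 lay apart from the 4 numbered 3 and 4 on the third component (5.07%). Young libraries came from 1 plate column and day 8 libraries from another according to the well codes in the sample names, so an effect of the column and an effect of age cannot be told apart. In both columns fed libraries came from rows A to D and fasted libraries from rows E to H. An effect of the row and an effect of the fast thus cannot be told apart either. Levels are given as CPM, counts scaled to a fixed library size after TMM normalization, and responses as log2 of fasted over fed. Marker genes of the tissues also differed with age. The summed level of 5 body wall muscle markers was 9080 to 9800 CPM in fed young adults and 414 to 781 CPM in fed day 8 adults, that of 7 intestinal markers 1470 to 1550 against 208 to 309 CPM, and that of 35 sperm markers 3210 to 3410 against 2.86 to 38.4 CPM. For 7 neuron markers the ranges were 302 to 310 and 295 to 352 CPM, and for 7 oocyte markers 3860 to 4110 and 3030 to 5160 CPM. In RNA of whole animals, fewer cells of a type and less RNA per cell cannot be told apart, and the part of these markers in the results that follow was not tested.

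Most of the young fasting response was smaller at day 8 or could not be seen there. In young adults 3790 genes rose and 3767 fell with the fast, 42.4% of the 17844 tested. At day 8 the fast changed 66 genes, 0.37%, a count that rose to 1612 with day 8 libraries 3 and 4 only, 328 with libraries 1 and 2 only, 838 with a term for libraries 3 and 4 and 228 with DESeq2, and was 34 to 94 with 1 library left out. The response itself differed between the ages for 4650 genes, 26.1% of those tested (edgeR quasi-likelihood test, Benjamini-Hochberg adjusted p under 0.05), of which 2396 (13.4%) had the higher and 2254 (12.6%) the lower value in young adults. Of the young rises 2318 were weaker at day 8, which is 13.0% of all tested genes and 61.2% of the rises. Of the young falls 2205 were weaker, 12.4% of all tested genes and 58.5% of the falls. For 1472 rises and 1562 falls no difference between the ages was called. No gene called in young adults had a called difference toward a larger response in the same direction at day 8. Day 8 libraries 1 and 2, and 3 and 4, deviated together from their group means, and with the library number as a block within each age the difference was called for 9051 genes, with 4029 weaker rises and 4703 weaker falls. That fit called 11621 genes in young adults and 514 at day 8.

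**Figure D1:**
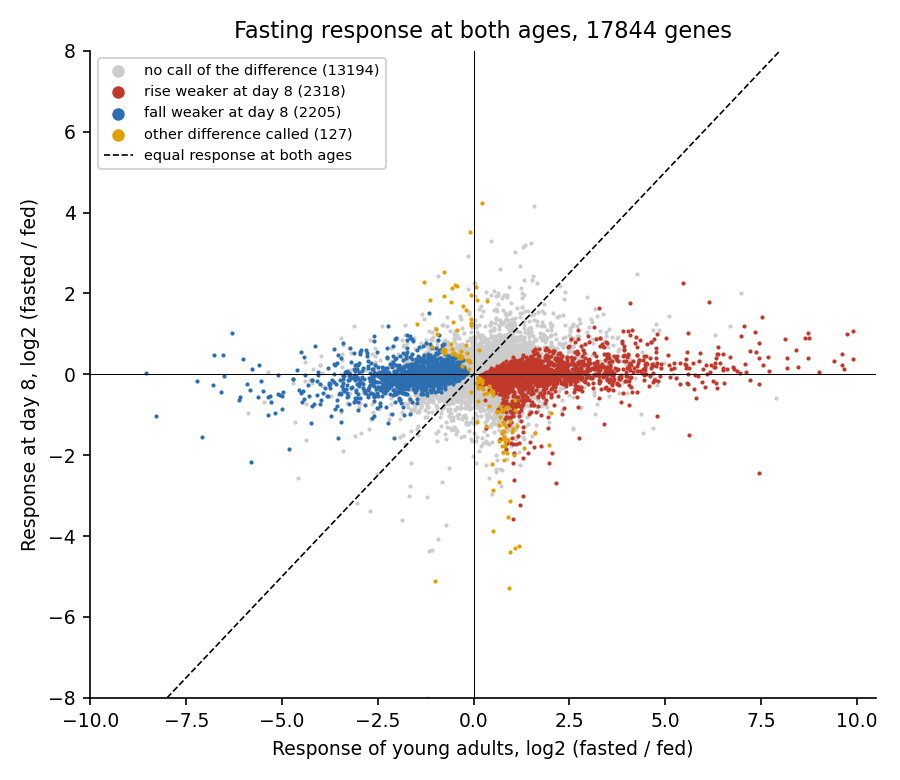
Fasting response of each of the 17844 tested genes in young adults (horizontal axis, log2 of fasted over fed) and at day 8 (vertical axis, the same unit), with genes coloured by whether the 2 responses differed. Genes with a weaker rise (2318) or a weaker fall (2205) spread along the horizontal axis close to 0 on the vertical axis, far from the dashed line of equal responses.

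The genes with a weaker response had little response left at day 8, which their choice by a called difference partly fixes. For 2971 of these 4523 genes (65.7%) the 95% interval of the day 8 response lay within a 1.5-fold change either way. A change in the young direction was called at day 8 for 32 of these genes and a change in the opposite direction for 11. Fed and fasted libraries did not overlap for 63.4% of all tested genes in young adults and for 2.28% at day 8. Among the 3201 genes called and changed at least 2-fold in young adults, 100 had an estimate of at least 2-fold in the same direction at day 8. Of these 3201, chosen by the young response alone, 981 (30.6%) had a day 8 interval within 1.5-fold. Across the 7557 genes called in young adults the slope of the day 8 response on the young response was 0.0562. Genes are not independent replicates, and the slope is a description. The median SE of the response was 0.20 on the log2 scale at either age. The fit gives each gene 1 spread over all 16 libraries, so this likeness does not mean equal precision at both ages. Voom with a weight per group called 12339 genes in young adults and 14 at day 8.

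The weaker responses fell into genes whose level had already moved in fed day 8 adults and genes whose fed level was close at both ages. A gene was put in the first set when fed day 8 adults differed from fed young adults (called, at least 1.5-fold), and in the second when the 95% interval of that fed age shift lay within 1.5-fold. The fed age shift itself was called for 65.4% of all tested genes, 30.8% higher and 34.7% lower at day 8. Between fasted animals of the 2 ages 68.1% were called, 31.2% higher and 36.9% lower. It shares the fed young libraries with the young response, so the split is a description and has no test. Of the 2318 weaker rises, 843 (36.4%) had a fed day 8 level shifted toward the young fasted level, 558 a level shifted away from it, 460 (19.8%) a close fed level, and 457 were undecided. Of the 2205 weaker falls, 1002 (45.4%) were shifted toward the young fasted level, 362 (16.4%) away from it, 517 (23.5%) were close and 324 undecided. With the library number as a block within each age these counts were 1224, 1236 and 1014 for rises shifted toward, away and close, and 1572, 676 and 2109 for falls.

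The fed age shift defined the sets, so its medians describe them and test nothing. In rises shifted toward the fasted level the median young response was 2.06 and the median fed age shift 1.6, and in 367 of 843 genes (43.5%) fed day 8 adults were at or past the young fasted level. In falls shifted toward it the medians were -1.24 and -1.69, and 694 of 1002 genes (69.3%) were at or past that level. In rises with a close fed level the median young response was 0.74, the day 8 response -0.03 and the fed age shift 0.03. In falls with a close fed level the young response was -0.52 and the fed age shift -0.02, with a day 8 response that rounded to 0. Over all tested genes the median young response was 0.03, the day 8 response -0.01 and the fed age shift -0.01. Close does not mean equal, as the fed age shift was called inside the 1.5-fold margin for 97 of the 460 rises in the direction of the young response and for 54 in the other direction. Among the 517 falls these counts were 103 and 81. The margin is 0.585 on the log2 scale, larger in size than the median young response of the close falls. A gene with a small young response could thus be close with a fed day 8 level at or past the young fasted level, as 19 of the 460 rises and 11 of the 517 falls were. The young response was at least 2-fold for 151 of the 460 rises and for 53 of the 517 falls with a close fed level.

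**Figure D2:**
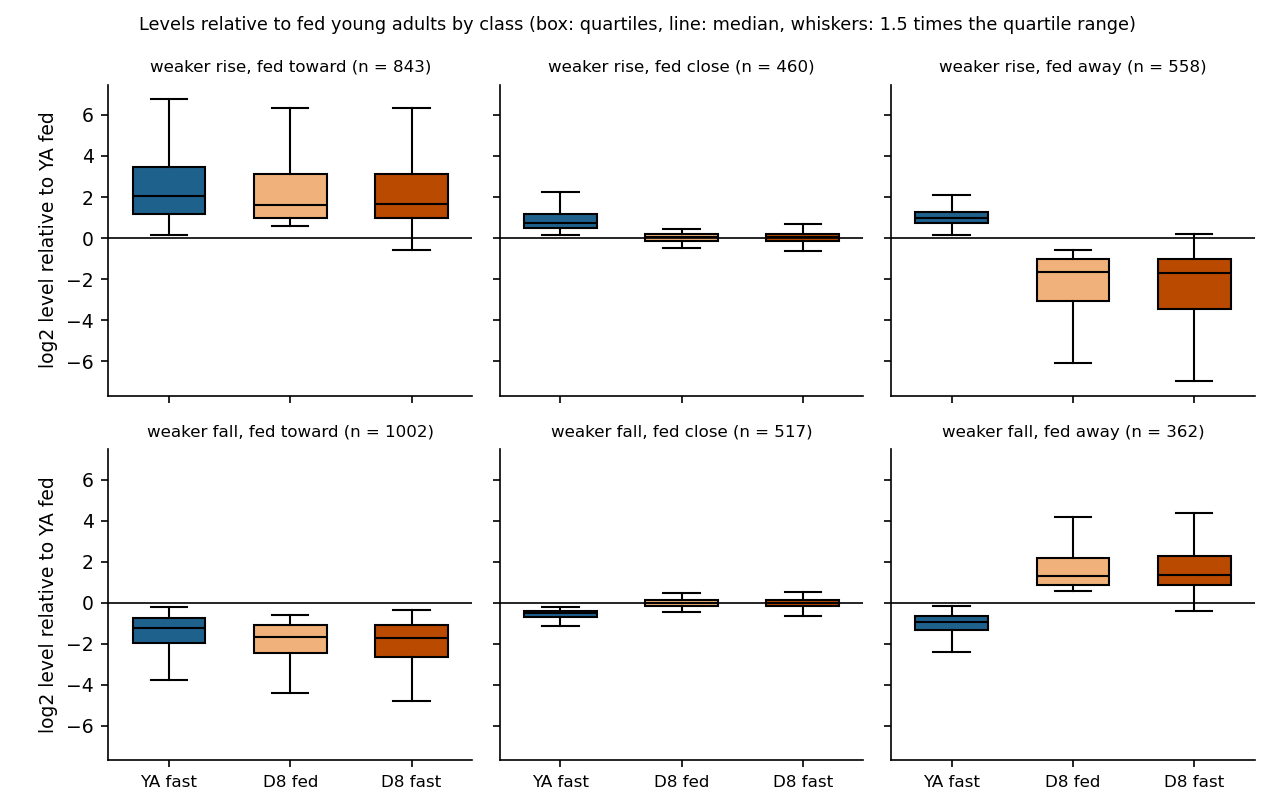
Level relative to fed young adults (vertical axis, log2, 0 is the fed young level) of fasted young, fed day 8 and fasted day 8 adults, for the 6 classes of genes with a weaker response. Boxes give quartiles and lines medians over genes. Fed and fasted day 8 boxes sit at nearly the same height in each panel, near the fasted young box when the fed level was shifted toward it (medians 2.06 and 1.6 for rises) and near 0 when it was close.

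Genes of mitochondrial fatty acid breakdown were mixed, with weaker rises and weaker falls. In young adults 11 of 23 rose and 9 fell, beside 21.2% and 21.1% of all tested genes. In fed day 8 adults 8 were higher and 11 lower than in fed young adults, beside 30.8% and 34.7%. Of the 23 genes, 9 had a weaker rise (39.1%) and 7 a weaker fall (30.4%), beside 13.0% and 12.4% of all tested genes. Of the 9 rises, 6 had a fed day 8 level shifted toward the young fasted level, 2 were close (4 with the block) and 1 away. Of the 7 falls, 5 were shifted toward. Among the rises was acs-2, an acyl-CoA synthetase that activates fatty acids for beta-oxidation (WBGene00009221, chromosome V, 15567394 to 15569897, WBcel235). Its level was 9.37, 10.4, 12.0 and 11.8 CPM in the fed young libraries and 857, 808, 845 and 822 CPM in the fasted young libraries. At day 8 it was 158, 167, 159 and 148 CPM fed and 142, 167, 129 and 125 CPM fasted. Fed day 8 libraries thus all lay above the fed young and below the fasted young ones, and the fed and fasted day 8 libraries overlapped. The young response was 6.26 ± 0.12 (SE), the day 8 response -0.17 ± 0.09 and the difference 6.42 ± 0.14 (edgeR adjusted p = 5.98e-14). The carnitine palmitoyltransferase cpt-1, which passes fatty acids into mitochondria, went from 257 to 633 CPM with the fast in young adults and stood at 441 and 410 CPM in fed and fasted day 8 adults. The acyl-CoA dehydrogenases acdh-7 and acdh-10 had young responses of 1.25 and 1.22, day 8 responses of -0.05 and -0.01, and fed age shifts of 1.13 and 0.94. The falls included kat-1, a thiolase, with a young response of -1.06 and a fed age shift of -1.94.

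Of 12 lipases, which free fatty acids, 6 had a weaker rise (50%, beside 13.0% of all tested genes), 5 shifted toward the fasted level and 1 close. None was called lower with the young fast, beside 21.1% of all tested genes. The day 8 response lay within 1.5-fold for 2 of the 6. The lysosomal lipase lipl-3 was at 0.320, 0.144, 0.257 and 0.0656 CPM in fed young and 55.3, 55.1, 57.2 and 55.8 CPM in fasted young libraries. At day 8 it was at 3.24, 4.09, 1.95 and 1.72 CPM fed and 5.83, 5.90, 4.12 and 4.32 CPM fasted. It was higher in every fasted than in every fed day 8 library, with a response of 0.88 ± 0.27 that was not called (edgeR adjusted p = 0.36), against 8.13 ± 0.38 in young adults. In the same class lipl-1 had a fed day 8 level of 19.7 CPM, above the fasted young level of 8.68 CPM. The triglyceride lipase atgl-1 had a small young rise of 0.44 and a fed age shift of 0.67.

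Peroxisome genes differed from these in their fed level. Peroxins import enzymes into peroxisomes, where very long chain fatty acids are shortened and ascaroside pheromones are trimmed. Of 11 peroxins 5 had a weaker rise (45.45%, beside 13.0% of all tested genes). Of these 5, 1 was shifted toward the fasted level (prx-11), 2 were close (prx-5 and prx-6, 4 with the block), 1 away (prx-2) and 1 undecided (prx-13). Of 22 peroxisomal enzymes and transporters 13 had a weaker rise (59.1%) and 6 a weaker fall (27.3%), beside 13.0% and 12.4% of all tested genes. Of the 13 rises 1 was shifted toward (acox-3), 6 were close, 3 were away and 3 undecided. The close ones were acox-1.1, acox-1.6, maoc-1, daf-22, ctl-2 and acl-7. The peroxisomal catalase ctl-2 was at 49.1, 50.3, 49.5 and 47.6 CPM in fed young and 166, 165, 165 and 160 CPM in fasted young libraries. Its day 8 levels were 64.1, 57.5, 47.9 and 46.2 CPM fed and 62.8, 72.1, 66.2 and 60.4 CPM fasted, so the day 8 groups overlapped. The difference between the responses was 1.46 ± 0.13 (edgeR adjusted p = 3.97e-07) and the fed age shift 0.13 ± 0.09, with a 95% interval of -0.06 to 0.32. The import receptor prx-5 behaved alike, with group means of 11.8, 25.6, 10.4 and 11.5 CPM in fed young, fasted young, fed day 8 and fasted day 8 adults. At day 8 a rise was called for 1 of the 22 enzymes and transporters and for no peroxin. The import ATPase prx-6 was higher in all 4 fasted than in all 4 fed day 8 libraries (7.53 to 8.75 against 6.73 to 7.22 CPM, response 0.22 ± 0.09, not called at an edgeR adjusted p of 0.71), and the peroxisomal protease lonp-2 went from 17.9 to 22.1 CPM fed to 24 to 32.6 CPM fasted at day 8. The lonp-2 response at day 8 was called at 0.47 ± 0.10, against 1.91 ± 0.10 in young adults. For prx-10 the young response was 0.53 and no difference was called (0.35 ± 0.15, edgeR adjusted p = 0.0986), although 10 alternatives called it. The 6 weaker falls among peroxisomal enzymes and transporters comprised 5 genes shifted toward the fasted level, among them acox-1.3, acox-1.4 and the transporter pmp-5, and pmp-4, which was close.

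**Figure D3:**
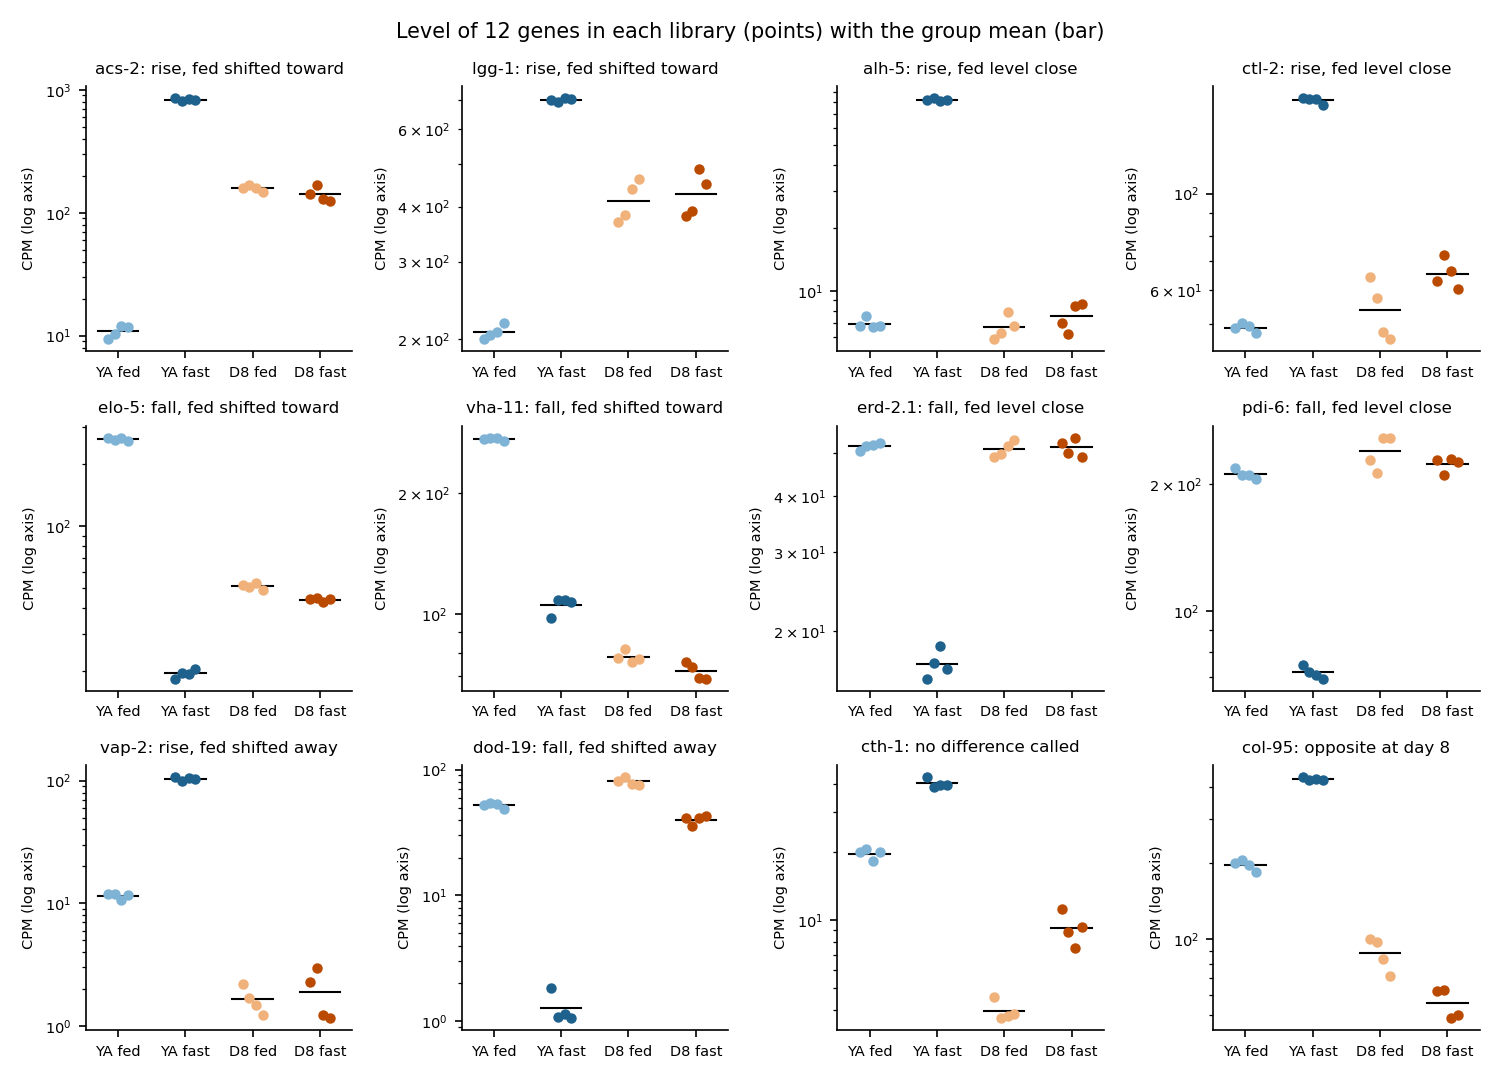
Level of 12 genes in each of the 16 libraries (points, CPM on log axes) with the mean of each group (bars). The day 8 groups sit together for most genes, at an intermediate level for acs-2, lgg-1 and elo-5, at the fed young level for alh-5, ctl-2, erd-2.1 and pdi-6, and below the fasted young level for vha-11, while cth-1 was higher after the fast at both ages.

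The glyoxylate cycle enzyme icl-1 rose strongly in young adults and not at day 8. It stood at 123, 130, 126 and 135 CPM in fed young and 4510, 4430, 4450 and 4440 CPM in fasted young libraries, and at 665, 632, 548 and 503 CPM fed and 619, 636, 484 and 503 CPM fasted at day 8. The ages were separated in both states, and the fed and fasted day 8 libraries overlapped. Its response was 5.12 ± 0.12 in young adults and -0.07 ± 0.10 at day 8. Of the 11 genes of the glyoxylate cycle and gluconeogenesis, 4 had a weaker rise (36.4%) and 3 a weaker fall (27.3%), beside 13.0% and 12.4% of all tested genes. Of the rises, icl-1 was shifted toward the fasted level and pck-2, pyc-1 and cts-1 were shifted away. The 3 falls were all shifted toward it. The phosphoenolpyruvate carboxykinase pck-1 kept its fall. It went from 197 to 214 CPM fed to 143 to 146 CPM fasted in young adults and from 27.7 to 47.3 CPM to 25 to 26.8 CPM at day 8, with responses of -0.51 ± 0.11 and -0.57 ± 0.11 and a difference of 0.06 ± 0.16 that was not called (95% interval -0.28 to 0.39, edgeR adjusted p = 0.832). The day 8 groups of pck-1 did not overlap. Of 19 glycolysis genes 8 had a weaker fall (42.1%, beside 12.4% of all tested genes). These were gpi-1, pfk-1.1, tpi-1, gpd-2, pgk-1, enol-1, pyk-1 and ldh-1, all 8 with a fed day 8 level at or past the young fasted level. The hexokinase gene hxk-3 had the list's 1 weaker rise. With the library number as a block within each age 16 glycolysis genes had a weaker fall (84.2%, beside 26.4% of all tested genes in that fit), 13 of them shifted toward the fasted level. With 1 library left out 5 to 10 had a weaker fall. The lactate dehydrogenase ldh-1 fell from 103 to 118 CPM to 37.1 to 40.5 CPM in young adults and was at 34.5 to 39.5 CPM in fed day 8 adults.

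Genes that build and modify fatty acids had weaker falls and, fewer, weaker rises. Of 21 genes of synthesis, desaturation and elongation, 8 had a weaker fall (38.1%) and 5 a weaker rise (23.8%), beside 12.4% and 13.0% of all tested genes. All 8 falls had a fed day 8 level shifted toward the young fasted level. The stearoyl-CoA desaturase fat-7 was at 250, 256, 251 and 244 CPM in fed young and 5.28, 5.29, 4.87 and 5.25 CPM in fasted young libraries. It was at 4.66, 4.44, 2.15 and 2.55 CPM in fed and 4.03, 4.63, 4.05 and 3.31 CPM in fasted day 8 libraries. All 8 day 8 libraries lay below every young library of either state. The difference between its responses was -5.82 ± 0.28 (edgeR adjusted p = 5.73e-10). The elongase elo-5, which makes branched-chain fatty acids, was at 268, 260, 267 and 257 CPM in fed young and 18.3, 19.5, 19.3 and 20.4 CPM in fasted young libraries. At day 8 it was at 52, 50.7, 53.2 and 49.3 CPM fed and 44.2, 44.8, 42.8 and 44.5 CPM fasted. Every fasted day 8 library was below every fed one, and the response of -0.22 ± 0.05 was not called (edgeR adjusted p = 0.081). The elongases elo-2, elo-6 and elo-9 had young responses of -3.25, -3.10 and -2.74 and day 8 responses of -0.13, -0.10 and -0.09. The delta-6 desaturase fat-3 rose by 1.97 in young adults from a fed level that was close at both ages (fed age shift -0.14), and its day 8 response was 0.02.

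**Figure D4:**
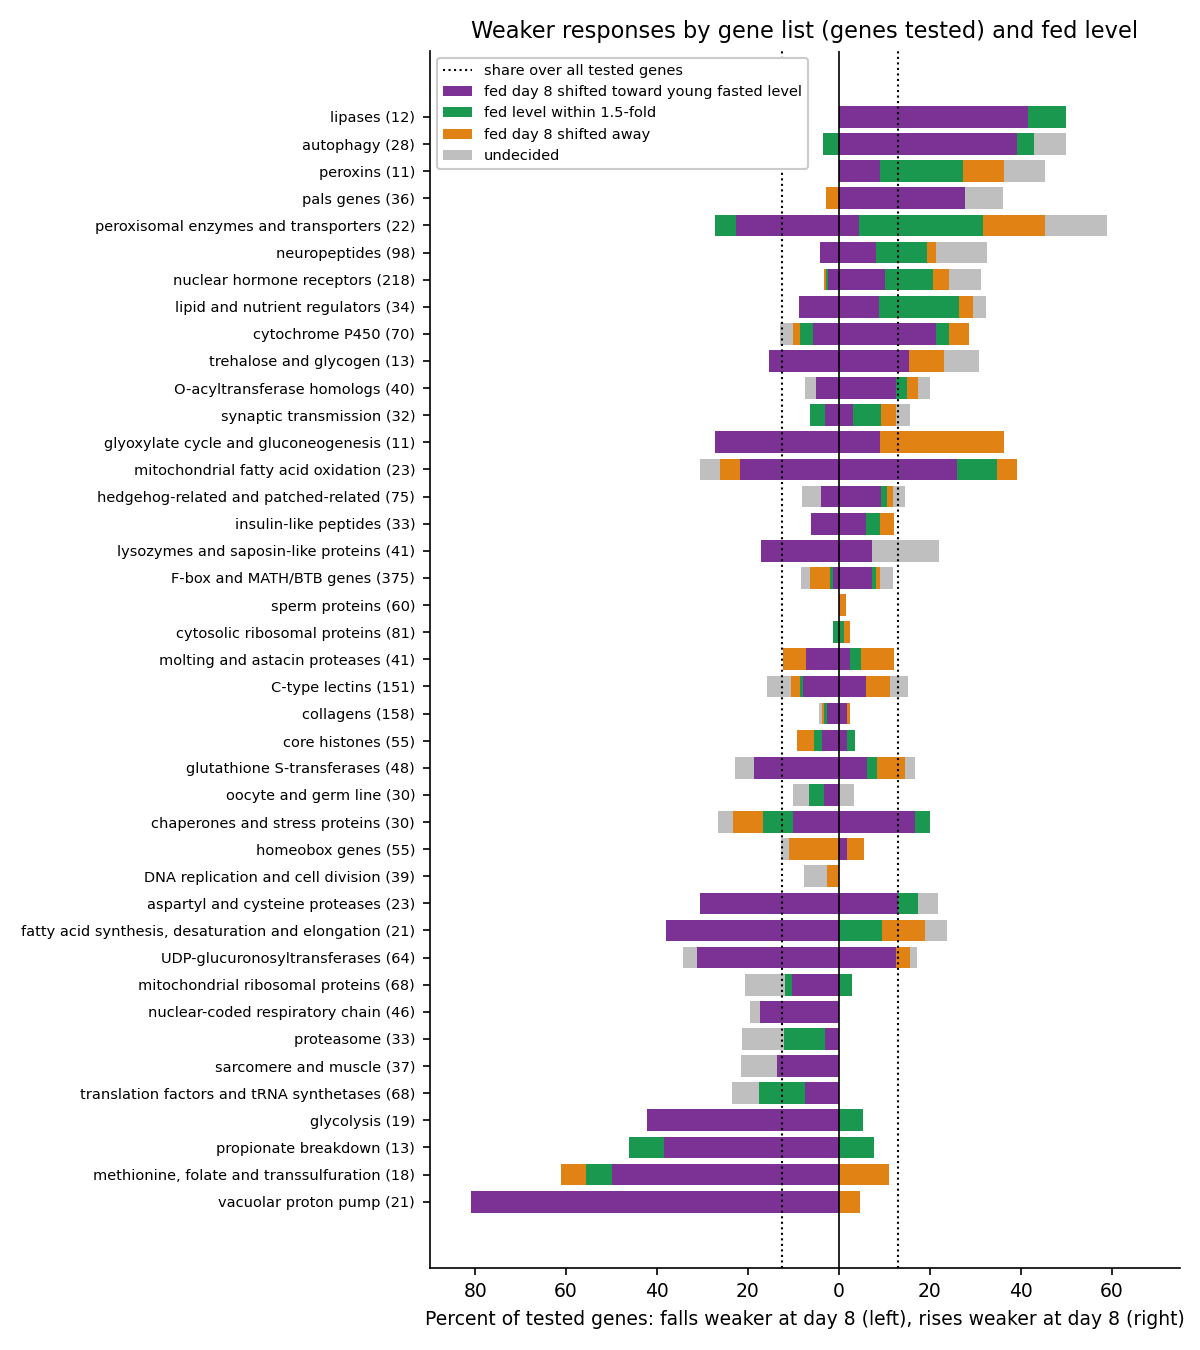
Share of the tested genes of each list (number in brackets) with a fall weaker at day 8 (bars to the left, percent) or a rise weaker at day 8 (bars to the right, percent), coloured by the fed day 8 level. Dotted lines mark the shares over all tested genes, 12.4% for falls and 13.0% for rises. Lipases (6 of 12) and autophagy genes (14 of 28) have mostly shifted rises, peroxisomal enzymes (13 of 22) mostly close or undecided ones or ones shifted away, and the vacuolar proton pump (17 of 21) falls that were all shifted.

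Of 28 autophagy genes 15 rose with the fast in young adults, beside 21.2% of all tested genes. In fed day 8 adults 25 of the 28 were higher than in fed young adults, beside 30.8%. A weaker rise was called for 14 (50%, beside 13.0%), 11 of them shifted toward the fasted level, and in 8 of the 14 fed day 8 adults were at or past it. The day 8 response lay within 1.5-fold for 13 of the 14. The Atg8 homologue lgg-1, which is linked to the growing autophagosome membrane, was at 200, 204, 208 and 218 CPM in fed young and 698, 693, 706 and 703 CPM in fasted young libraries. Its day 8 levels were 369, 382, 438 and 462 CPM fed and 381, 390, 488 and 451 CPM fasted, between the young groups and overlapping each other. The lipid transfer protein gene atg-2 was at 48.5 to 52.6 CPM in fed young, 159 to 175 CPM in fasted young, 171 to 205 CPM in fed day 8 and 177 to 195 CPM in fasted day 8 libraries. Fed day 8 adults had thus reached the fasted young level of atg-2, with responses of 1.73 ± 0.07 and 0.02 ± 0.07. The cargo receptor sqst-1 had a young response of 2.41, a day 8 response of -0.22 and a fed age shift of 2.78. The kinase gene unc-51, which starts autophagy, had 1.03, -0.14 and 0.76.

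The vacuolar proton pump, which acidifies lysosomes, moved the opposite way. Of 21 subunit and assembly genes 17 had a weaker fall (80.95%, beside 12.4% of all tested genes). All 17 had a fed day 8 level shifted toward the young fasted level, 16 at or past it, and a day 8 response within 1.5-fold. The list's median response was -0.95 in young adults and -0.07 at day 8, beside 0.03 and -0.01 over all tested genes. The stalk subunit gene vha-11 was at 273, 275, 275 and 269 CPM in fed young and 97.7, 108, 108 and 107 CPM in fasted young libraries. At day 8 it was at 77.7, 81.7, 75.7 and 77.3 CPM fed and 75.9, 73.6, 69.0 and 68.9 CPM fasted, so all day 8 libraries lay below all young ones. The responses of vha-11 were -1.38 ± 0.05 and -0.12 ± 0.05 and differed by -1.26 ± 0.07 (edgeR adjusted p = 5.78e-09). The genes vha-4, vha-8 and vha-10 had differences of -1.1, -1.12 and -1.03. The intestinal subunit gene vha-6 was the exception, with a young rise from 369 to 427 CPM and fed and fasted day 8 levels of 56.2 and 46.7 CPM. The summed intestinal markers, vha-6 among them, were lower in every fed day 8 than in every fed young library, and their part in the fed age shift of the pump genes was not tested.

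Methionine and propionate metabolism had weaker falls from shifted fed levels. S-adenosylmethionine, the methyl donor, is made from methionine, and propionate is burned through a shunt when vitamin B12 is short. Of 18 genes of methionine, folate and transsulfuration 11 had a weaker fall (61.1%, beside 12.4% of all tested genes), 9 of them shifted toward the fasted level. The hydrolase gene ahcy-1, which clears S-adenosylhomocysteine, was at 3070, 3090, 3070 and 2920 CPM in fed young and 1250, 1260, 1280 and 1230 CPM in fasted young libraries, against 762, 697, 726 and 678 CPM fed and 699, 648, 568 and 587 CPM fasted at day 8. The fed and fasted day 8 libraries of ahcy-1 overlapped, and its day 8 response of -0.19 ± 0.07 was not called (edgeR adjusted p = 0.584). The synthetase sams-1 had responses of -1.95 and -0.28 with a fed age shift of -3.30. In this list the cystathionine lyase cth-1 was different, as it rose from 18.2 to 20.6 CPM to 38.7 to 43.0 CPM in young adults and from 3.68 to 4.55 CPM to 7.56 to 11.2 CPM at day 8. Its responses of 1.03 ± 0.11 and 1.22 ± 0.11 were both called, and their difference of -0.19 ± 0.15 was not (edgeR adjusted p = 0.396). Of 13 propionate genes 6 had a weaker fall (46.15%, beside 12.4%). The shunt dehydrogenase acdh-1 fell from 1110 to 1150 CPM to 85.0 to 87.6 CPM in young adults and was at 60.2, 68.5, 71.9 and 72.5 CPM fed and 29.4, 15.8, 39.9 and 47.6 CPM fasted at day 8. Its day 8 groups did not overlap, and the response of -1.04 ± 0.22 missed the call (edgeR adjusted p = 0.057). Its shunt partner hphd-1 had a called day 8 fall of -0.81, weaker than the young fall of -1.84.

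Regulators of these programmes had weaker responses from both close and shifted fed levels. Of 34 lipid and nutrient regulators 11 had a weaker rise (32.35%, beside 13.0% of all tested genes). Of these, 6 were close, 3 shifted toward the fasted level, 1 away and 1 undecided, and all 11 had a day 8 response within 1.5-fold. A weaker fall was called for 3 (8.82%, beside 12.4%), nhr-68, nhr-76 and nhr-114, all shifted toward the fasted level. Over the 34 genes the fed age shift was called higher for 17 and lower for 6, beside 30.8% and 34.7% of all tested genes. With the library number as a block within each age 21 had a weaker rise (61.8%), 15 of them close, and 7 a weaker fall (20.6%), beside 22.6% and 26.4%. The receptor gene nhr-49 was at 113, 111, 116 and 110 CPM in fed young and 144, 142, 148 and 151 CPM in fasted young libraries, and at 138, 139, 141 and 148 CPM fed and 139, 144, 138 and 146 CPM fasted at day 8. Its fed age shift of 0.33 ± 0.05 was within the margin and yet brought fed day 8 adults to nearly the fasted young level, so its close class does not mean that the fed level stayed. The Mediator subunit gene mdt-15, a partner of NHR-49, rose by 0.69 in young adults with a fed age shift of -0.16, and the energy sensor kinase aak-2 rose by 0.46 with a fed age shift of 0.00. The TFEB homologue hlh-30 was at 73.9 to 79.3 CPM in fed young, 181 to 186 CPM in fasted young, 93.8 to 115 CPM in fed day 8 and 88 to 105 CPM in fasted day 8 libraries. Its difference was 1.38 ± 0.10 and its fed class was undecided. The insulin receptor daf-2 and the coactivator crtc-1 were shifted toward the fasted level, with fed age shifts of 0.68 and 0.74.

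Nuclear hormone receptors and neuropeptides were the other large groups in which a rise was lost. Of 218 nuclear hormone receptors 68 had a weaker rise (31.2%) and 7 a weaker fall (3.21%), beside 13.0% and 12.4% of all tested genes. Of the 68, 22 were shifted toward the fasted level, 23 were close, 8 away and 15 undecided. With the block 103 had a weaker rise (47.25%) and 19 a weaker fall (8.72%), beside 22.6% and 26.4% of all tested genes in that fit. The receptor gene nhr-88 was at 29.5, 30.3, 33.2 and 32.6 CPM in fed young and 92.5, 87.8, 85.6 and 89.2 CPM in fasted young libraries, and at 25.9, 28.5, 28.6 and 28.9 CPM fed and 28.4, 27.2, 31.7 and 28.5 CPM fasted at day 8. Of 98 neuropeptide genes 66 rose in young adults and 1 at day 8, beside 21.2% and 0.151% of all tested genes. A weaker rise was called for 32 (32.7%, beside 13.0%), 11 of them close, 8 shifted toward, 2 away and 11 undecided. With the block 61 had a weaker rise (62.2%, beside 22.6%), with 25 close and 16 toward, and with 1 library left out 20 to 38 did. The FMRFamide-like peptide genes flp-3 and flp-10 had young responses of 0.87 and 1.33, day 8 responses of -0.10 and 0.26, and fed age shifts of -0.17 and -0.22. The convertase egl-3, which cuts peptide precursors, went from 113 to 192 CPM in young adults and from 99.2 to 89.6 CPM at day 8. The summed neuron markers, egl-3 among them, were at 302 to 310 CPM in fed and 380 to 396 CPM in fasted young libraries, and their part in the neuropeptide result was not tested.

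Among detoxification and defence genes the share with a weaker response differed between families. Of 70 cytochrome P450 genes 20 had a weaker rise (28.6%, beside 13.0% of all tested genes), 15 shifted toward the fasted level, and 9 a weaker fall (12.9%, beside 12.4%). With the block 17 had a weaker fall (24.3%, beside 26.4%). Of 64 UDP-glucuronosyltransferases, which attach sugars to toxins, 22 had a weaker fall (34.4%, beside 12.4%), 20 shifted toward the fasted level, and 11 a weaker rise (17.2%, beside 13.0%). Of 151 C-type lectins 23 had a weaker rise (15.2%) and 24 a weaker fall (15.9%), shares near those of all tested genes, also with the block (40 and 36 genes, 26.5% and 23.8%, beside 22.6% and 26.4%). Of 36 pals genes, known from the response to intracellular pathogens, 13 had a weaker rise (36.1%, beside 13.0%). For 9 of these 13 pals genes fed day 8 adults were at or past the fasted young level. The P450 gene cyp-37B1 had the largest difference among named genes of the shifted rises, 8.96 ± 0.33. It was at 0.112, 0.0288, 0.0946 and 0.0328 CPM in fed young, 37, 33.8, 36.7 and 35.4 CPM in fasted young, 4.2, 5.17, 4.73 and 3.74 CPM in fed day 8 and 3.61, 5.69, 4.22 and 5.04 CPM in fasted day 8 libraries. The flavin monooxygenase fmo-2 was at 0.608 to 1.31 CPM in fed young and 330 to 336 CPM in fasted young libraries. At day 8 fmo-2 followed the split among libraries, at 57.4 and 63.5 CPM in fed libraries 1 and 2 and 144 and 147 CPM in fed libraries 3 and 4, with 102, 96.1, 137 and 130 CPM fasted. Its relative fmo-1 was shifted away, from 9.04 and 79.3 CPM in fed and fasted young to 3.09 and 3.37 CPM in fed and fasted day 8 adults. The metallothionein mtl-1 stood at 0.288 to 0.544 CPM in fed young and 18.4 to 34.7 CPM in fed day 8 libraries, near the fasted young level of 35.2 to 38.7 CPM.

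The lists of protein synthesis and turnover differed in their counts, read against the 12.4% of all tested genes with a weaker fall. Of 81 cytosolic ribosomal protein genes 2 had a weaker rise (2.47%, beside 13.0%) and 1 a weaker fall (9 falls with the block, 11.1%, beside 26.4% in that fit). In fed day 8 adults 79 of the 81 were lower than in fed young adults, beside 34.7% of all tested genes. Of 68 translation factors and tRNA synthetases 16 had a weaker fall (23.5%), 7 close and 5 shifted toward the fasted level. A weaker fall was called for 14 of 68 mitochondrial ribosomal protein genes (20.6%), 9 of 46 respiratory chain genes (19.6%) and 7 of 33 proteasome genes (21.2%). These counts depended on the fit, as the block gave 42 (22 close, 12 toward), 41, 25 and 30, beside 26.4% of all tested genes in that fit, and leaving out 1 library gave 12 to 25, 8 to 29, 6 to 16 and 3 to 21. The cap-binding factor gene ife-2 was at 33.1 to 35.6 CPM in fed young and 14.6 to 14.9 CPM in fasted young libraries, and at 30 to 32.8 CPM fed and 28.4 to 32.1 CPM fasted at day 8. All 6 yolk protein genes were lower in fed day 8 than in fed young adults, and 3 of them had a weaker fall, beside 34.7% and 12.4% of all tested genes. Among these 3, vit-1 was at a mean of 12950 CPM in fed young, 290 CPM in fasted young and 304 CPM in fed day 8 adults. The summed level of the 6 genes changed less, at 127400 to 129500 CPM in fed young, 70940 to 73350 CPM in fasted young and 20660 to 50190 CPM in fed day 8 libraries. Counts of the near-identical vitellogenin copies may be split between them.

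For genes of the germ line, muscle and cuticle the counts depended on the fit. Of 60 sperm protein genes 1 had a weaker rise (1.67%, beside 13.0% of all tested genes), and 7 had one with the block (11.7%, beside 22.6%). All 60 were lower in fed day 8 than in fed young adults, beside 34.7% of all tested genes. Of 30 oocyte and germ line genes 3 had a weaker fall (10.0%), and of 39 genes of DNA replication and cell division 3 (7.69%), beside 12.4% of all tested genes. The block raised these counts to 22 (73.3%) and 27 (69.2%), beside 26.4%, and leaving out 1 library gave 0 to 9 and 2 to 14. Of 37 sarcomere and muscle genes 8 had a weaker fall (21.6%), 5 shifted toward the fasted level. Under the block there were 17 falls (45.95%, 14 toward) and 11 rises (29.7%), beside 26.4% and 22.6% of all tested genes. Of 158 collagen genes, which build the cuticle, 4 had a weaker rise (2.53%) and 7 a weaker fall (4.43%), below the 13.0% and 12.4% of all tested genes. The block gave 12 rises (7.6%) and 36 falls (22.8%), also below the 22.6% and 26.4% of that fit. Of 375 F-box and MATH/BTB genes, many of which serve as adaptors for protein degradation, 45 had a weaker rise (12.0%), 27 shifted toward the fasted level, and 31 a weaker fall (8.27%), 17 shifted away. These shares are at or below those of all tested genes (13.0% and 12.4%), and the block gave 68 (18.1%) and 54 (14.4%), beside 22.6% and 26.4%.

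Among single genes with a close fed level, the aldehyde dehydrogenase alh-5 (WBGene00000111, chromosome V, 1996105 to 1999581, WBcel235) had the largest lost rise. It was at 6.76, 7.59, 6.69 and 6.81 CPM in fed young and 82.4, 83.9, 81.3 and 82.2 CPM in fasted young libraries. At day 8 it was at 5.87, 6.30, 7.91 and 6.81 CPM fed and 6.98, 6.20, 8.44 and 8.68 CPM fasted, so that 3 of the 4 groups overlapped and fasted young adults stood alone. The difference was 3.39 ± 0.16 (edgeR adjusted p = 3.75e-10), the day 8 response 0.17 ± 0.11 and the fed age shift -0.05 ± 0.11, with a 95% interval of -0.28 to 0.19. Among genes with a lettered symbol and a mean of at least 10 CPM in some group, the water and glycerol channel gene aqp-1 and the acyl-CoA synthetase gene acs-17 followed with differences of 2.85 ± 0.15 and 2.42 ± 0.08, and then fozi-1 and nhr-180 with 2.40 and 2.39. The fed age shifts of aqp-1 and acs-17 were called inside the margin, at 0.31 and 0.35. On the falling side the 5 largest by the same rule were ergi-2, sec-22, erd-2.1, pdi-6 and lec-8. The KDEL receptor gene erd-2.1, which returns proteins to the endoplasmic reticulum, was at 50.3, 51.8, 52 and 52.4 CPM in fed young and 15.7, 17, 18.6 and 16.5 CPM in fasted young libraries, and at 49, 49.7, 51.8 and 53.2 CPM fed and 52.6, 49.9, 54 and 49 CPM fasted at day 8. Its difference was -1.62 ± 0.09 (edgeR adjusted p = 2.32e-09) and the 95% interval of its fed age shift -0.15 to 0.11. The disulfide isomerase gene pdi-6 had group means of 211, 71.6, 239 and 223 CPM.

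A smaller set of genes with a weaker response had fed day 8 levels shifted away from the young fasted level. The venom-allergen-like gene vap-2 rose from 10.7 to 12.0 CPM to 98.9 to 107 CPM in young adults and was at 1.23 to 2.2 CPM fed and 1.16 to 2.96 CPM fasted at day 8. For dod-19, which is known as a gene downstream of the insulin pathway, the fed level was higher at day 8, 75.9 to 87.3 CPM against 48.8 to 54.6 CPM. It fell to 1.06 to 1.83 CPM in young adults and to 35.9 to 42.6 CPM at day 8, with called responses of -5.36 ± 0.15 and -1.01 ± 0.12 (edgeR adjusted p = 0.000935 at day 8). The lectin gene clec-190 and ced-11 fell in young adults and were higher in fed day 8 adults, and both followed the day 8 split. Fed libraries 1 and 2 held 49.4 and 51.9 CPM of clec-190 and 19.2 and 19.8 CPM of ced-11, and fed libraries 3 and 4 held 17.4 and 17.1 CPM of clec-190 and 44.4 and 47.8 CPM of ced-11. In the rises shifted away, nep-6 and icmt-1 were at or below 0.349 and 1.01 CPM in every day 8 library, and their calls were lost under some alternatives.

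Genes called at both ages are limited by the number of day 8 calls. Of those called in both, 43 moved in the same direction, 11 of them with no difference called, and 11 moved in opposite directions. With the block within each age these counts were 331, 100 and 99, and with day 8 libraries 3 and 4 only 921, 422 and 412. Of those with no difference called and at least 10 CPM in some group, the 5 with the largest day 8 response relative to the young one were cth-1, pck-1, aqp-7, pud-3 and col-179. The collagen gene col-95 rose from 185 to 205 CPM to 426 to 439 CPM in young adults and fell from 71.1 to 100 CPM to 48.6 to 62.7 CPM at day 8, with no overlap at either age and a difference of 1.79 ± 0.15 (edgeR adjusted p = 2.59e-07). The carboxylesterase gene cest-24 rose from 33.7 to 34.9 CPM to 83.1 to 87.2 CPM in young adults and fell from 32 to 34.9 CPM to 25.9 to 29.4 CPM at day 8, from a fed level that was close. The carbonic anhydrase gene cah-4 and semo-1, a methanethiol oxidase gene, rose by 0.29 and 0.32 in young adults and fell by 0.65 and 1.32 at day 8. A further 127 genes (0.712%) differed between the ages without a call in young adults, 9 of them with a call at day 8. The histone gene his-8 was among these 9, at 0.778 to 1.18 CPM fed and 0.502 to 0.605 CPM fasted in young adults, and 1.54 to 4.90 CPM fed and 6.83 to 18.8 CPM fasted at day 8. A pseudogene beside the ribosomal RNA genes held 0.582 to 2.89% of counts in fed and 2.32 to 8.21% in fasted day 8 libraries. In young adults it held 1.96 to 6.22% in fed and 2.36 to 5.97% in fasted libraries. Histone copies are near identical and their messages largely lack polyA tails, and the part of RNA selection in the his-8 difference was not tested.

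**Figure D5:**
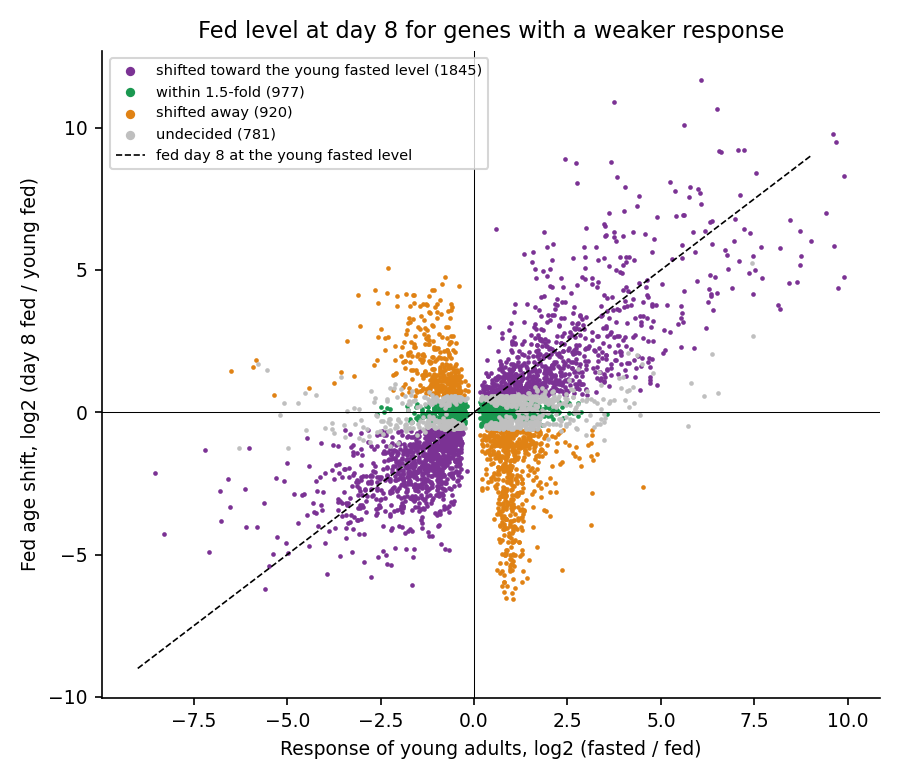
Fed age shift (vertical axis, log2 of day 8 fed over young fed) against the young fasting response (horizontal axis, log2 of fasted over fed) for the 4523 genes with a weaker response, coloured by class. The axes share the fed young libraries. Genes on the dashed line had a fed day 8 level equal to the young fasted level, and the 977 close genes form the band at 0.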

How the data were processed

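PolyA RNA of whole N2 worms was made into libraries with the Kapa mRNA HyperPrep kit, per the labels' protocols. The authors deposited 1 table of estimated counts per gene for 16 libraries, not normalized between libraries. DESeq and the build WBcel235 are named per the submitters' processing notes; which aligner and counter were run is not given in the sources used here. If both ends of a fragment were counted, depth is overstated, so halved counts were tried.

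Counts were rounded to whole numbers. Of 21882 genes, 17844 passed edgeR's filterByExpr, and 4038 did not. edgeR 4.0.16 (R 4.3.3) fitted 1 mean per group with TMM scaling and a quasi-likelihood test, with Benjamini-Hochberg adjustment over all tested genes and calls under 0.05; SE is the absolute log2 change over the square root of F. Limma 3.58.1 and DESeq2 1.42.0 served as alternatives. The scripts were tested on simulated data. A weaker response means a young call and a difference call of the same sign; fed classes use a 1.5-fold margin and 95% intervals. The difference contains the young response, so class counts are descriptions.

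Members and gene lists were chosen with earlier results of these data known. Named genes had a symbol made of letters and a number, a highest group mean of 10 CPM or more and no overlap between young fed and fasted libraries. They were the 5 largest differences in each class, 5 with the largest day 8 to young ratio among kept responses and 5 with a larger or opposite day 8 response. Up to 4 members per list with the smallest adjusted p and 12 fixed genes were added. Values of kat-1, atgl-1, fat-3, elo-9, sqst-1, unc-51, sams-1, mdt-15 and aak-2, and other list members named without values, were chosen after their values were seen.

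Pairing came from the library numbers. Same-numbered fed and fasted libraries had deviations correlated at 0.421, 0.550, 0.329 and 0.564 at day 8, and at 0.0399, 0.0342, -0.00458 and 0.0243 in young adults. Day 8 libraries 1 and 2, and 3 and 4, correlated as much across numbers (0.494, 0.359, 0.666 and 0.469), so the table shows a split into sets and not pairs by number; young numbers paired nothing. The block within each age takes up that split, and its values stand beside counts of weaker responses that moved over 1.5-fold.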

Additional observations from a re-analysis of the deposited data

Results flagged for a closer look

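Single libraries stood apart from the other 3 of their group by Dixon's test in 9 of 172 groups of the genes shown, and chance flags about 1 in 20. These were prx-5 in fasted young library 2 (24 CPM), alh-5 in fed young library 2 (7.59 CPM), fat-7 in fasted young library 3 (4.87 CPM), vha-11 in fasted young library 1 (97.7 CPM), ahcy-1 in fed young library 4 (2920 CPM), pdi-6 in fasted day 8 library 2 (210 CPM), dod-19 in fasted young library 1 (1.83 CPM), his-8 in fasted day 8 library 3 (18.8 CPM) and nhr-88 in fed day 8 library 1 (25.9 CPM).

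The response differed between the ages by its own test for 4650 genes. Among the genes named for a larger or opposite day 8 response, its estimate had opposite signs at the ages for his-8 (difference -2.71), col-95 (1.79), semo-1 (1.64), cest-24 (1.6) and cah-4 (0.94), all on the log2 scale. The young his-8 response of -0.78 ± 0.39 was not called (edgeR adjusted p = 0.121), and that of semo-1 was called near the limit (edgeR adjusted p = 0.0483).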

How the results depend on the processing

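Fits that took up the spread between day 8 libraries called more genes, and the cause was not tested. The replicate block within each age gave 9051 differences (4204 higher, 4847 lower in young adults), 4029 weaker rises (1014 close, 1236 away), 4703 weaker falls (1572 toward, 2109 close, 676 away), 11621 young and 514 day 8 calls. A term for day 8 libraries 3 and 4 gave 9398 (4461, 4937), 4274 rises (1266 toward, 1080 close, 1348 away), 4791 falls (1589, 2178, 670), 11869 young and 838 day 8 calls. With day 8 libraries 1 and 2 only, values were 7975 (3639, 4336), 3512 rises (908 close, 948 away), 4221 falls (1867 close, 656 away), 11891 and 328. With libraries 3 and 4 only they were 8831 (4476, 4355), 4167 rises (1430, 931, 1305), 4197 falls (1725 close, 591 away), 12125 and 1612. A plain replicate block gave 5295 differences and changed no other count over 1.5-fold. Voom gave 319 rises away, 12339 young and 14 day 8 calls, and DESeq2 228 day 8 calls. A margin of 1.2 left 68 rises and 103 falls close, and a margin of 2 gave 962 and 928, with 236 falls away.

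Leaving out 1 library gave 3989 to 5608 differences (2058 to 2894 higher, 1931 to 2714 lower), 1985 to 2676 rises (747 to 955 toward, 372 to 521 close, 409 to 708 away), 1884 to 2652 falls (909 to 1103, 383 to 961, 320 to 378), 6475 to 8241 young and 34 to 94 day 8 calls. Close falls numbered 855 without fasted day 8 library 3 and 961 without library 4. Day 8 calls were 39 and 43 without fed day 8 libraries 1 and 3, 34, 40, 35 and 36 without fasted young libraries 1 to 4, and 35, 35 and 41 without fed young libraries 1 to 3. Differences changed sign for pud-3 (0.15 with libraries 1 and 2), pck-1 (-0.14 with libraries 3 and 4, -0.061 to 0.191 with 1 library left out) and col-179 (0.0018 with libraries 3 and 4), none of which was called. Of the 4523 weaker responses, 84.5% or more kept their class in each alternative with a class count. RLE scaling moved the median fed age shift by 0.113.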

Other observations

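Many genes of the endoplasmic reticulum and secretory pathway had a weaker fall, in a list chosen after values were seen. That choice partly fixes the counts. Of 62 tested, 44 fell and 2 rose in young adults, beside 21.1% and 21.2% of all tested genes. A weaker fall was called for 34 (54.8%, beside 12.4%), all 34 with a day 8 response within 1.5-fold. With the block within each age 49 had a weaker fall (79.0%, beside 26.4% in that fit). The fed day 8 level was close for 20 of the 34 (36 with the block), among them erd-2.1, sec-22, the chaperone genes hsp-3 and hsp-4 and the disulfide isomerase genes pdi-1, pdi-2, pdi-3 and pdi-6. It was shifted toward the young fasted level for 10, among them the translocon genes sec-61.A, sec-61.B and sec-61.G and trap-1 to trap-4, and away for 1, dnj-27. Over the 34 genes the median young response was -1.01, the day 8 response -0.04 and the fed age shift -0.27. The BiP gene hsp-3 was at 847, 822, 831 and 853 CPM in fed young, 367, 353, 365 and 358 CPM in fasted young, 696, 653, 773 and 738 CPM in fed day 8 and 701, 661, 682 and 684 CPM in fasted day 8 libraries.

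The X chromosome held 22.6% of the weaker falls (498 of 2205) and 13.5% of the weaker rises (312 of 2318), against 13.9% of all tested genes. It held 20.2% of all young falls and 11.4% of all young rises. Among weaker falls the share on the X chromosome was 33.4% where the fed day 8 level was shifted away, 22.3% where it was shifted toward and 16.8% where it was close. These shares were looked at after the calls were seen and have no test.

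Of 55 core histone genes tested, 9 rose at day 8, beside 0.151% of all tested genes, and the median response was 1.22 at day 8 and -0.06 in young adults. A pseudogene beside the ribosomal RNA genes held 2.32 to 8.21% of counts in fasted and 0.582 to 2.89% in fed day 8 libraries. Its share was 2.36 to 5.97% in fasted and 1.96 to 6.22% in fed young libraries. Histone messages largely lack polyA tails, and the part of RNA selection in these values was not tested.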
